A study of Mus musculus and blank sample with 768 samples.

Results

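The genes described here encode the subunits of the mitochondrial respiratory chain and ATP synthase, in single mouse cells sorted from tumours, lymph nodes and blood. Members were all gene rows present in both deposited count tables whose symbol matches Nduf followed by a, b, c, s or v and a number, Sdha to Sdhd, Uqcr, Cox4i1, Cox5a, Cox5b, Cox6, Cox7, Cox8a, Atp5, mt-Nd, mt-Co, mt-Atp or mt-Cytb, and 6 pseudogene names were left out. This gave 94 members of 51734 gene symbols, of which 81 lie in nuclear chromosomes and 13 in the mitochondrial genome. The nuclear members comprise 37 of complex I, 4 of complex II, 8 of complex III, 15 of complex IV and 17 of complex V. The mitochondrial members comprise 7 of complex I, 1 of complex III, 3 of complex IV and 2 of complex V. Atp5sl and Atp5s match the symbol rule, although the annotation gives Atp5sl as Dmac2 and RefSeq gives Atp5s as Dmac2l, names of distal membrane arm assembly factors.

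The respiratory chain passes electrons from NADH (complex I) and succinate (complex II) through complex III to oxygen at complex IV, and pumps protons out of the mitochondrial matrix. Complex V, the ATP synthase, lets them flow back and makes ATP. Complexes I, III, IV and V are assembled from subunits of both genomes, while complex II is wholly nuclear. Endothelial cells are known for making much of their ATP by glycolysis, and their respiratory chain is known to serve other needs such as the supply of aspartate for growth.

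Full-length cDNA of single cells was sequenced after SMART-seq2 amplification, and each GEO sample is 1 well. Cells sorted as CD45+CD31-GFP- from tumours are labelled macrophages (96 wells, plate KM1). Cells sorted as CD45- CD31+ GFP- are labelled endothelial cells (tumour EC, 96 wells on plate KM2; lymph node GFP-, 48, 36 and 32 wells in pools A, B and C). Cells sorted as CD45- CD31+ GFP+ are labelled Csf1r lineage endothelial cells, here CLEC (tumour, 96 wells on each of plates KM3 and KM4; lymph node GFP+, 48, 36 and 32 wells in pools A, B and C; blood, 27 wells in pools B and D). CD45- CD31+ GFPlow cells of lymph nodes, with 19, 32 and 72 wells in pools B, C and D, are labelled potential CLEC, and 2 wells held no cell. GFP is the only lineage mark the labels give for all groups, and they state no strain, allele, tumour type, treatment, time, age or animal. Because no animal is named, each gate counts as 1 sample, and there is no test between gates. The intervals given cover only the sampling of cells with a read, and not differences between animals, plates or pools. No interval is given for read counts, since PCR reads without molecular identifiers are not independent molecules.

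Wells with at least 50000 reads in genes and 1000 genes were kept, which left 597 of 766: 81 macrophages, 84 tumour EC, 84 (plate KM3) and 89 (plate KM4) tumour CLEC, 75 lymph node GFP- (40, 26 and 9 in pools A, B and C), 98 GFP+ (43, 33 and 22), 79 GFPlow (15, 14 and 50 in pools B, C and D) and 7 blood cells. Kept wells had 58373 to 3123110 reads in genes. The 2 empty wells had 59 and 82 reads, with 0 reads on nuclear members and 0 and 1 read on mitochondrial members. The 10 pan-endothelial markers summed to between 3174 CPM (lymph node GFP+) and 10607 CPM (tumour EC) in the endothelial gates and to 49.5 CPM in macrophages, and the 10 macrophage markers to 35922 CPM in macrophages and at most 73.5 CPM in the endothelial gates. The 7 cells sorted from blood went against their label, with 178.5 CPM of pan-endothelial, 1720 CPM of macrophage and 3569 CPM of T and B cell markers. They are given by value only and enter no comparison. No 2 wells held identical counts.

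Nuclear members are given as reads per 1000000 nuclear-gene reads (CPM), with mitochondrial rows left out of the total, and mitochondrial members as reads per 1000000 of all gene reads, also written CPM. A comparison is the log2 ratio of (CPM + 1) from the summed reads of each gate, so it understates the ratio of low genes. A nuclear gene counted as measured with at least 1 CPM and reads in 5% of cells in one of the gates, and as higher or lower with a ratio of at least 2-fold. Of the 81 nuclear members, 76 to 79 were measured, depending on the comparison. The tissue-restricted paralogs Cox6a2, Cox6b2 and Cox7a1 of complex IV were measured only in the comparison with macrophages, Cox6b2 also in that of GFPlow with GFP- cells, and Cox7b2 in none.

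Motif cores near the start of the genes were looked for because many respiratory chain genes are textbook targets of the nuclear respiratory factors. The cores searched, on both strands, were NRF1 (GCGCATGC), ETS (CCGGAAGT, the class of site bound by GABP, also called nuclear respiratory factor 2) and YY1 (AAGATGGC). The windows ran from 250 bases before to 50 bases after the start in RefSeq (build GRCm38.p6), and 67 of 81 nuclear members were matched to one. The NRF1 core was in 10 of them (14.9%) against 3.05% of 27025 genes, the ETS core in 5 (7.46% against 4.31%), the YY1 core in 11 (16.4% against 3.19%) and any of them in 25 (37.3% against 9.91%). The NRF1 core is nearly a palindrome, so that a match on one strand often overlaps one on the other. A match is a description of letters and not of a bound site. The stretches below were chosen as members of complexes I, III and IV whose core lies before the start of the gene in both RefSeq and GENCODE. Capitals mark the core, with overlapping matches joined.
Cox6a1: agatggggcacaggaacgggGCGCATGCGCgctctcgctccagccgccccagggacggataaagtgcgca
Ndufa6: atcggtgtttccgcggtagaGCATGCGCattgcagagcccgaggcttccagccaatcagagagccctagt
Ndufa11: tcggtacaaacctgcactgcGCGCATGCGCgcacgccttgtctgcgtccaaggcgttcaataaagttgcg
Uqcr11: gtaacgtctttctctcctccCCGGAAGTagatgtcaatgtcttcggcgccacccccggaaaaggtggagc
The Cox6a1 stretch is chr5:115349071-115349140 on the minus strand, with its NRF1 core at -162 from the start. The Ndufa6 stretch is chr15:82354325-82354394, minus strand, with the NRF1 core at -83. For Ndufa11 the stretch is chr17:56717682-56717751, plus strand, with the NRF1 core at -60. For Uqcr11 it is chr10:80406838-80406907, minus strand, with an ETS core at -66.

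Summed over all kept cells, nuclear members took 1.36% of nuclear-gene reads in macrophages, 1.37% in tumour EC, 1.16% and 1.12% in tumour CLEC of plates KM3 and KM4, and 0.713% in the blood cells. In lymph nodes the share was 0.645%, 0.822% and 0.961% in GFP- cells of pools A, B and C, 0.927%, 0.736% and 0.813% in GFP+ cells of the same pools, and 0.918%, 1.16% and 0.924% in GFPlow cells of pools B, C and D. Every lymph node pool lay below tumour EC and macrophages, while GFPlow pool C reached the tumour CLEC plates. Over all pools the lymph node gates stood at 0.753% (GFP-), 0.842% (GFP+) and 0.960% (GFPlow), and the pools of the 3 gates overlap. Pools B and C hold all 3 gates, and within each of them GFPlow was highest, GFP- next and GFP+ lowest, whereas in pool A, which has no GFPlow cells, GFP+ lay above GFP-. Single cells spread widely: the middle 50% of cells ran from 1.11% to 1.53% in tumour EC, from 0.875% to 1.35% in tumour CLEC and from 0.521% to 0.859% in lymph node GFP- cells.

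**Figure D1:**
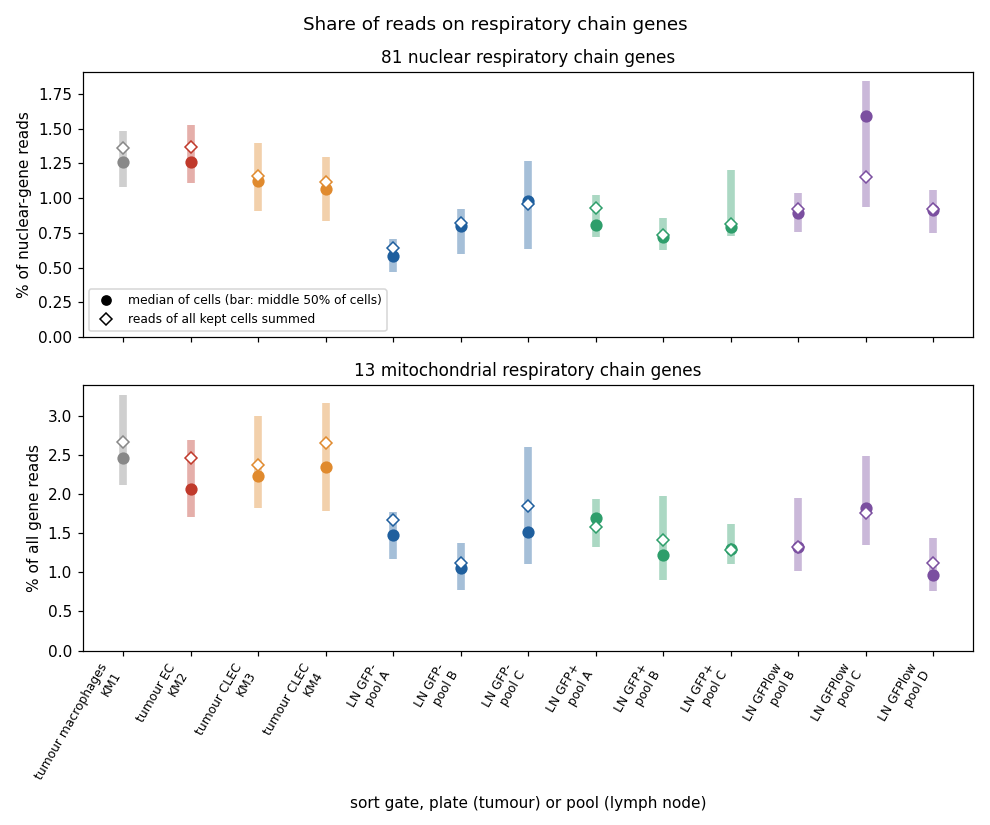
Share of reads on the 81 nuclear members (top, % of nuclear-gene reads) and the 13 mitochondrial members (bottom, % of all gene reads) in each plate or pool; filled points are medians of cells, bars the middle 50% of cells, open diamonds the reads of all kept cells summed. The tumour plates lie above every lymph node pool in both panels by summed reads, except for nuclear members in GFPlow pool C at 1.16%, where the median of cells is also the highest of all plates and pools.

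With each cell thinned to 100000 reads, a median of 63 nuclear members was found in a tumour EC, 58 in a macrophage, 49 in a tumour CLEC, 44 in a lymph node GFP+ cell, 41.5 in a GFPlow cell and 41 in a GFP- cell. The mitochondrial members together took 2.67% of all gene reads in macrophages, 2.46% in tumour EC and 2.37% and 2.65% in tumour CLEC of plates KM3 and KM4. In lymph nodes they took 1.67%, 1.12% and 1.84% (GFP-, pools A, B and C), 1.58%, 1.41% and 1.28% (GFP+) and 1.33%, 1.76% and 1.13% (GFPlow, pools B, C and D), all below the tumour plates. The 7 blood cells gave 2.07%. Across cells of one gate, the nuclear and mitochondrial shares showed Spearman correlations of -0.10 to 0.05 in the 6 tumour and lymph node gates (at least 75 cells in each, from shared plates or pools). The mitochondrial members and the mitochondrial ribosomal RNAs, which share the same transcripts and the same denominator, correlated at 0.49 to 0.69.

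Averaged over the 6 tumour and lymph node gates, Cox4i1, the ubiquitous form of complex IV subunit 4, led with 634.9 CPM per kilobase of transcript, followed by Atp5b, the catalytic beta subunit of ATP synthase, with 468.7. Cox6a1, the general form of complex IV subunit 6a, stood at 456.8. Uqcrh, the hinge protein of complex III, led its complex with 292.2, Ndufb8, a membrane arm subunit, led complex I with 225.1 just ahead of Ndufb9 with 224.8, and Sdhb, the iron-sulphur subunit of complex II, led with 161.2. Gate by gate, Cox4i1 led complex IV in 6 of 6, Atp5b complex V in 4, Sdhb complex II in 4 and Uqcrh complex III in 3, while complex I was led by Ndufa8 in 3 gates and by Ndufb8, Ndufb9 or Ndufa2 in 1 each. In lymph node GFP- and GFP+ cells Atp5b, at 535.6 and 501.6 CPM per kilobase, stood above Cox4i1, at 343.8 and 461.4. On the same per-base scale, but with all gene reads as the total, mt-Co1 of complex IV stood at 4408, mt-Atp6 of complex V at 3942, mt-Cytb of complex III at 2696 and mt-Nd1 of complex I at 2274.

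In tumours, the nuclear subunits of all complexes stood at similar levels in the 3 gates. Among members with at least 20 CPM in one of them, 70 of 74 (94.6%) had a highest level within 2-fold of the lowest, against 44% of the 8298 nuclear genes at that level. The median ratio of the highest to the lowest gate was 1.43 for members, 1.42 for cytosolic ribosomal proteins and 2.21 for all genes. In the 3 lymph node gates the counts were 62 of 75 members (82.7%) against 45.2% of all genes, and over the 6 gates 12 of 75 (16%) against 8.88%.

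Between tumour CLEC and tumour EC, which share tissue and differ by the GFP mark, none of the 76 measured members differed by 2-fold, where the share of all measured genes past 2-fold was 8.95% upward and 9.94% downward. Abundant genes rarely differed here: among those with at least 100 CPM in one of the 2 gates, 59 of 59 members (100%) and 96.5% of all 2005 genes were within 2-fold. The median member stood at -0.16 on the log2 scale, beside -0.11 for all 10997 measured genes, and 18 of 76 members (23.7%) were above 0, against 43.1% of all genes. Medians were -0.11 for complex I, -0.37 for complex II, -0.20 for complex III, -0.16 for complex IV and -0.32 for complex V. Plates KM3 and KM4 gave -0.17 and -0.21 over all members. Tumour EC come from a single plate, so gate and plate cannot be told apart.

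Atp5c1, the gamma subunit that forms the rotating stalk of ATP synthase, was at 207.01 CPM in CLEC of plate KM3, 230.5 in those of KM4 and 400.6 in tumour EC, a log2 ratio of -0.87. Atp5b was at 741.9 and 633.3 CPM against 1056 CPM, a log2 ratio of -0.62, and Sdha, the flavoprotein subunit of complex II, at 137.9 and 121.5 against 208.2, a log2 ratio of -0.68. In each of these, both CLEC plates lay below the EC plate. Atp5g2, a gene for the membrane ring subunit c, had a log2 ratio of -0.76 and Ndufc1, a small complex I subunit, one of -0.72. At the other end stood the complex I accessory subunits Ndufa13 (0.36), Ndufa5 (0.26) and Ndufb2 (0.20). Ndufa13 was at 135.5 and 99.1 CPM in the CLEC plates and 90.8 in EC, so its 2 CLEC plates differed from each other by more than the lower of them did from EC. Atp5c1 and Atp5g2 have near-identical copies elsewhere in the transcriptome, among which reads may be split.

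The mitochondrial members summed to 2.52% of reads in tumour CLEC and 2.46% in tumour EC, a log2 ratio of 0.03, with -0.05 for plate KM3 and 0.11 for KM4. The mean over cells in place of summed reads gave 0.31, and without the 5 kept cells above 25% mitochondrial reads, of which 4 were CLEC of plate KM4, the summed value was -0.01. By gene, mt-Co1 stood at -0.26 and mt-Cytb at 0.16. The mitochondrial ribosomal RNAs, which are not members, took 1.52% of reads in CLEC and 0.910% in EC. Their part in the result was not tested.

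Tumour CLEC compared with tumour macrophages differ in cell type as well as in the mark. Of 79 measured members, 2 were at least 2-fold higher in CLEC (2.53%, against 26.1% of all measured genes) and 3 lower (3.80%, against 21.1%). The median was -0.27, with all measured genes at 0.09, and 18 of 79 members (22.8%) were above 0, against 53.1% of all genes. Short genes as a whole stood low in this comparison: those with a transcript under 1000 bases had a median of -0.30, and the 46 members of that length one of -0.33, a difference of -0.03 at this length. For 1000 to under 2000 bases the medians were -0.18 (members) and -0.05 (all genes), and for 2000 bases or more -0.33 (8 members) and 0.22. The mitochondrial members were at -0.09 by summed reads (2.52% against 2.67%) and at 0.25 by the mean over cells. By complex, the nuclear medians were -0.19 (I), -0.39 (II), 0.00 (III), -0.53 (IV) and -0.35 (V).

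Ndufa8, an accessory subunit of complex I (chr2:36036326-36049406, minus strand), was at 335.3 and 244.2 CPM in CLEC of plates KM3 and KM4, 298.6 in tumour EC and 105.8 in macrophages. Its log2 ratio of CLEC against macrophages was 1.44. Reads of Ndufa8 were found in 76.9% of CLEC (exact Clopper-Pearson 95% interval 69.9 to 82.9) and 61.7% of macrophages (50.3 to 72.3). These intervals treat cells of shared plates as independent and do not compare the gates, and Ndufa8 was named for its high ratio here. Ndufa4, counted here with complex I by its symbol and known as a subunit of complex IV, was at 137.8 and 145.9 CPM in the CLEC plates, 159.1 in EC and 66.7 in macrophages. Both genes stood higher in each of the 3 endothelial plates than in the macrophage plate. Uqcrc2, a core protein of complex III, followed with a log2 ratio of 0.52.

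Of 14 measured complex IV members, 1 had a ratio above 0 and 3 were called lower in CLEC, all of them under 5 CPM. None of the abundant ones passed 2-fold. Cox5a was at 291.2 CPM in macrophages and 154.4 and 161.7 in the CLEC plates, a log2 ratio of -0.88, and Cox4i1 at 722.5 against 475.4 and 512.5, a log2 ratio of -0.55. Ndufc1 (-0.97) and Ndufa13 (-0.89) of complex I were the lowest among members with 20 CPM or more. The 3 members called lower were paralogs at very low level: Cox6a2, the heart and muscle form of subunit 6a, with 4.9 CPM from 6 of 81 macrophages and 0 reads in every other gate, Cox6b2, known from testis, with 2.4 CPM from 5 macrophages, and Cox7a1, another muscle form, with 2.1 CPM from 6 macrophages. Cox6b2 and Cox7a1 had reads in other gates too, with means over the 6 gates of 1.39 and 1.95 CPM per kilobase and highest gate values of 4.18 and 5.33. The general counterparts of these paralogs, Cox6a1, Cox6b1 and Cox7a2, were at 333.01, 374.3 and 154.9 CPM in the same macrophages.

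**Figure D2:**
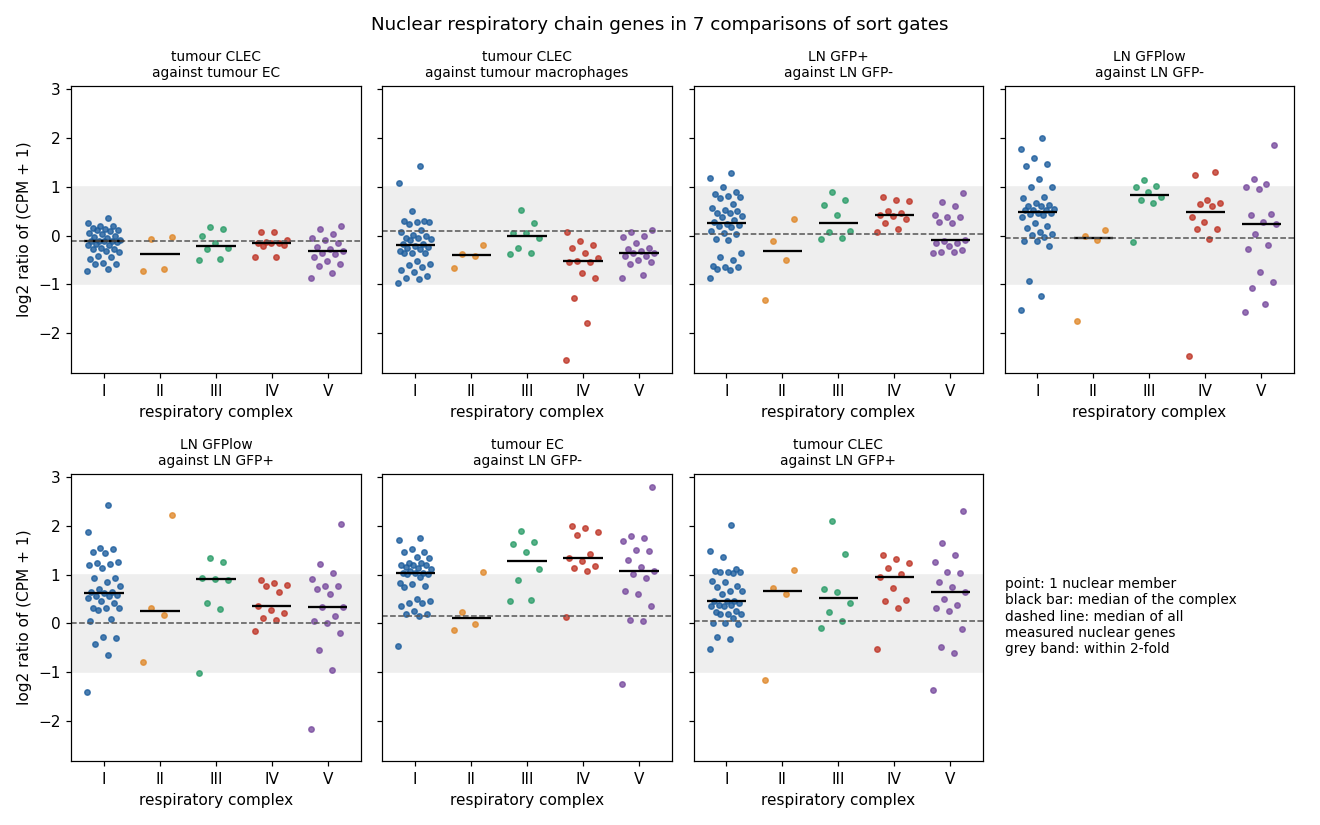
Log2 ratio of (CPM + 1) for each measured nuclear member by complex (horizontal axis) in the 7 comparisons; black bars are medians of a complex, dashed lines the median of all measured nuclear genes, the grey band marks ratios within 2-fold. Members of tumour CLEC against tumour EC all lie inside the band, while most members of tumour EC against lymph node GFP- lie near or above its upper edge.

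Among lymph node cells, GFP+ against GFP- gave a median of 0.27 over 76 measured members, with all genes at 0.04, but the pools went different ways. The median was 0.71 in pool A (all genes 0.15), 0.02 in pool B (0.00) and -0.36 in pool C (0.50), where only 9 GFP- cells were kept. Without pool A the median was -0.13. Over all pools, 3 members were at least 2-fold higher in GFP+ cells (3.95%, against 21.7% of all measured genes) and 1 lower (1.32%, against 20.5%). Medians by complex were 0.26 (I), -0.31 (II), 0.26 (III), 0.42 (IV) and -0.09 (V). The sum of the pan-endothelial markers was lower in GFP+ cells, at 3174 CPM against 10193 CPM in GFP- cells. Of these markers 10 of 10 had reads in both gates, and 9 of 10 were at least 2-fold lower in GFP+ cells (median log2 ratio -1.66). In the same order, blood endothelial markers summed to 2423 against 12027 CPM, with 7 of 8 at least 2-fold lower (median -8.39). Dissociation stress genes summed to 6167 against 12007 CPM. Fibroblast or pericyte markers summed to 283.1 against 27 CPM, but only 1 of these 8 genes was measured (log2 ratio 4.75). Lymphatic markers summed to 1431 against 5658 CPM, with 3 of 7 measured genes at least 2-fold higher in GFP+ cells and 2 lower. Of that list, Prox1, the transcription factor that defines lymphatic endothelium, had reads in 79.6% of GFP+ and 36% of GFP- cells. The part of these in the result was not tested.

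Ndufb6, an accessory subunit of the complex I membrane arm, was at 68.3, 69.5 and 91.6 CPM in GFP+ cells of pools A, B and C and at 32.6, 33.7 and 6.3 CPM in GFP- cells, with no overlap of the pools. Its log2 ratio was 1.28, from reads in 50% of GFP+ cells (exact 95% interval 39.7 to 60.3) and 30.7% of GFP- cells (20.5 to 42.4). These intervals treat cells of shared pools as independent and do not compare the gates, and Ndufb6 was named for its high ratio here. Ndufb9, another membrane arm subunit, was at 226.1, 134.2 and 236.2 CPM against 71.2, 91.9 and 164.1 CPM, a log2 ratio of 1.18 with overlapping pools. Ndufb11, which has a near-identical copy, had a ratio of 1.00, from 0.08 to 1.69 over the pools. Sdhd, a membrane anchor of complex II, went the other way, with 71.7, 64.6 and 2.7 CPM in GFP+ pools and 104.9, 164.1 and 67 CPM in GFP- pools, a log2 ratio of -1.33. The mitochondrial members were at 1.45% of reads in both gates, with log2 ratios of -0.08, 0.34 and -0.53 in pools A, B and C.

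GFPlow cells were compared within pools B and C, which hold all 3 lymph node gates, and therefore rest on 29 cells of this gate, 35 GFP- and 55 GFP+. Relative to GFP-, 17 of 77 measured members were at least 2-fold higher (22.1%) and 7 lower (9.09%), where 26.7% and 31.5% of all measured genes were. The median was 0.45, and all genes stood at -0.05. Pool B gave 0.33 (all genes -0.21) and pool C 0.25 (all genes 0.19), so in pool C members and all genes lay close together. The summed median lies above that of either pool. Pools B and C are mixed unequally, with 15 and 14 GFPlow cells and 26 and 9 GFP- cells. The summed median, the counts and the length classes of this comparison therefore do not separate gate from pool. All genes with a transcript under 1000 bases stood at 0.49 in this comparison and the 44 members of that length at 0.62. For 1000 to under 2000 bases members stood at 0.20 and all genes at -0.07. The 8 members of 2000 bases or more stood at -0.14 beside -0.15 for all genes. Blood endothelial markers summed to 2001 CPM in GFPlow and 11858 CPM in GFP- cells, with 7 of 8 at least 2-fold lower in GFPlow cells (median -9.76). Dissociation stress genes summed to 7359 and 14540 CPM. The part of these lists in the result was not tested. Against GFP+ cells, 17 of 76 members were higher (22.4%) and 3 lower (3.95%), where 22.1% and 26.5% of all genes were. That median was 0.59, with all genes at 0.01. Pool B gave 0.33 (all genes -0.17) and pool C 0.63 (all genes -0.01). By transcript length, members stood at 0.63 under 1000 bases, 0.55 for 1000 to under 2000 bases and 0.84 for 2000 bases or more (8 genes). All genes stood at 0.38, 0.03 and -0.08 in these classes. The share of members called higher was thus close to that of all genes in both, while the share called lower was smaller. The 2 comparisons share the GFPlow cells. The mitochondrial members were at 0.31 against GFP- cells (0.24 in pool B and -0.07 in pool C) and at 0.21 against GFP+ cells (-0.09 and 0.46), so that neither sign held in both pools.

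Ndufb3, a small membrane arm subunit of complex I, was at 59.7 and 120 CPM in GFPlow pools B and C, against 14.9 and 54.2 in GFP- cells and 22.8 and 54.8 in GFP+ cells of the same pools. Atp5k, the e subunit of ATP synthase that helps it form dimers, was at 11.6 and 69.3 CPM, against 7.2 and 26.9 in GFP- cells and 8.3 and 10.7 in GFP+ cells. Sdhd was at 176.96 and 141.1 CPM in GFPlow cells, against 64.6 and 2.7 in GFP+ cells and 164.1 and 67 in GFP- cells. In each of pools B and C these 3 genes were highest in GFPlow cells. In pool B, however, Atp5k was close to the other gates and Sdhd close to GFP- cells. Pool D, which holds 50 of the 79 GFPlow cells, is not part of these values. Summed over all pools, Sdhd was highest in GFP- cells among the 6 tumour and lymph node gates, at 102.97 CPM per kilobase. Lower in GFPlow cells were Ndufs3, a core subunit of complex I, with 67 and 5.0 CPM against 109.1 and 60.9 in GFP- and 115.6 and 69 in GFP+ cells, and Sdhc, the other membrane anchor of complex II, with 65 and 0 CPM against 100.5 and 122.9 in GFP- cells. With 14 cells in GFPlow pool C, single cells set such values. Ndufa4l2, a paralog of Ndufa4 known to be induced by hypoxia, had reads in 2 of 79 GFPlow cells (3.1 CPM) and in no other gate. Cox7b2 had no read in any kept cell, which in the largest gate, tumour CLEC, allows a share of up to 1.73% of cells with a read; cells that express it without giving a read are not limited by this.

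**Figure D3:**
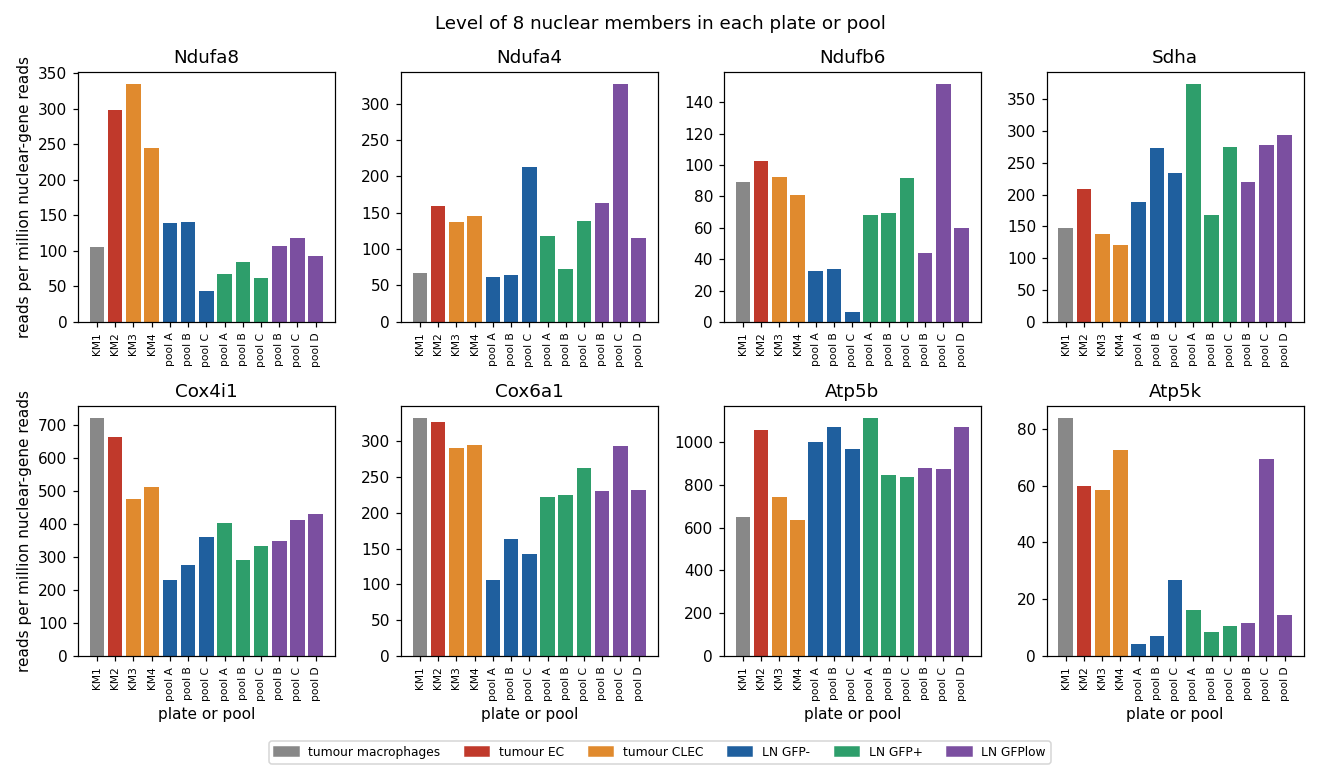
Level of 8 nuclear members (reads per 1000000 nuclear-gene reads, bars from 0) in each tumour plate and lymph node pool, coloured by gate. Ndufa8 is highest on the 3 tumour endothelial plates (244.2 to 335.3), Ndufb6 separates lymph node GFP+ from GFP- pools, Sdha is not higher in tumours, and Atp5k is low in all lymph node pools except GFPlow pool C (69.3).

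Tumour and lymph node endothelium were also compared, GFP- with GFP- and GFP+ with GFP+. Tumour and lymph node cells come in different tables and plates, so tissue and table cannot be told apart. The compared gates also differed in lymphatic and blood endothelial markers (given below), which cannot be told apart from tissue either. For tumour EC against lymph node GFP- cells, 47 of 76 measured members were at least 2-fold higher in the tumour (61.8%, against 27.7% of all genes) and 1 lower (1.32%, against 21.9%). The median was 1.08, with all 11460 measured genes at 0.16. Against single pools it was 1.43 (pool A, all genes 0.33), 1.04 (pool B, 0.29) and 0.57 (pool C, 1.46), so that against the 9 cells of pool C the members stood below all genes. For tumour CLEC against lymph node GFP+ cells, 23 of 76 were higher (30.3%, against 26%) and 2 lower (2.63%, against 24%), and the median was 0.60, with all genes at 0.06. Over the 6 pairs of a plate and a pool it ran from 0.43 to 0.93, with all genes at 0.11 to 0.42. By complex, the medians of the first were 1.03 (I), 0.12 (II), 1.29 (III), 1.34 (IV) and 1.08 (V), and of the second 0.46, 0.66, 0.53, 0.96 and 0.64.

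Over all measured genes these differences moved with transcript length, as did those between CLEC and macrophages, and most members are short. The members themselves fell steadily with length in tumour EC against GFP- cells. They did not in tumour CLEC against GFP+ cells, nor did they move steadily against macrophages. In tumour EC against lymph node GFP- cells, the median of all measured genes was 1.02 for transcripts under 1000 bases, 0.35 for 1000 to under 2000 bases and -0.02 for 2000 bases or more. The members stood at 1.24 (43 genes), 0.66 (25 genes) and 0.31 (8 genes) in these classes. Cytosolic ribosomal proteins stood at 1.45, 1.20 and 1.03. In tumour CLEC against lymph node GFP+ cells, all genes stood at 0.59, 0.15 and -0.06 and the members at 0.74, 0.25 and 0.52 in the same classes. Against genes of their own length the members thus stood higher by 0.23, 0.32 and 0.33 in the first comparison and by 0.15, 0.10 and 0.58 in the second, the last of each from 8 genes. These differences are from all pools summed and were not split by pool. Over all lengths, against GFP- pool C alone, the members stood at 0.57 and all genes at 1.46. A cause of the length trend was not tested. The 10 proliferation markers summed to 793.1 CPM in tumour EC and 807.4 in tumour CLEC, against 288.1, 119.3 and 82.8 CPM in lymph node GFP-, GFP+ and GFPlow cells. Dissociation stress genes summed to 2106 CPM in tumour EC against 12007 in GFP- cells (9 of 10 at least 2-fold lower) and to 1462 CPM in tumour CLEC against 6167 in GFP+ cells (8 of 10 lower). Lymphatic markers summed to 499.2 against 5658 CPM (6 of 7 measured genes at least 2-fold lower) and to 355.3 against 1431 CPM (5 of 6 lower). Prox1 had reads in 0% of tumour EC and 36% of GFP- cells, and in 0.58% of tumour CLEC and 79.6% of GFP+ cells. Of 8 blood endothelial markers, 7 were at least 2-fold higher in tumour CLEC than in GFP+ cells (median 6.84). In tumour EC against GFP- cells 0 were higher and 3 lower. Hypoxia response genes summed to 1793 against 630.1 CPM and to 1214 against 341.8 CPM. The part of these in the result was not tested.

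**Figure D4:**
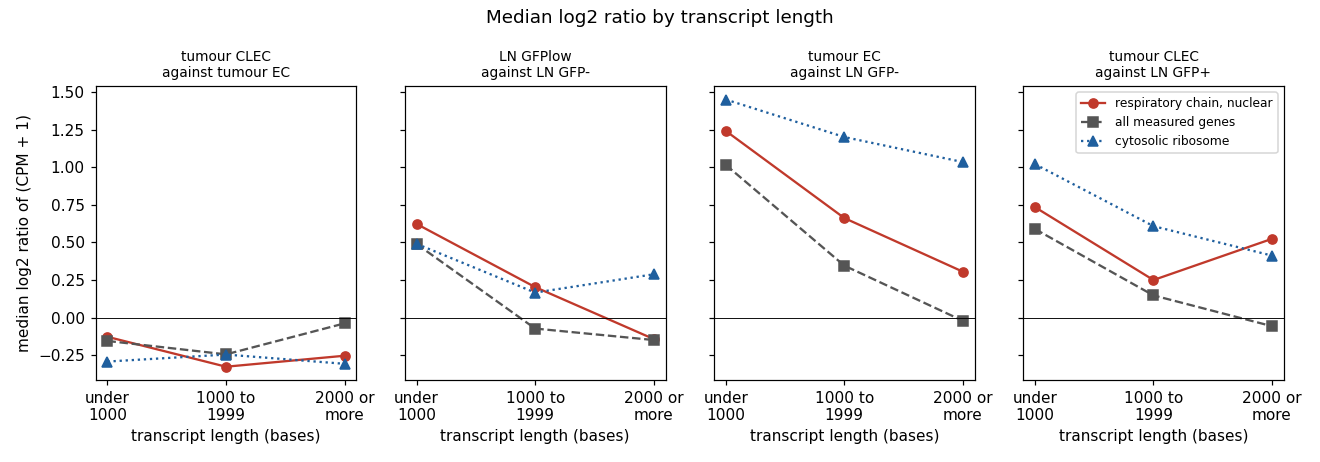
Median log2 ratio (vertical axis) by transcript length class for nuclear members, all measured genes and cytosolic ribosomal proteins in 4 comparisons. In the tumour against lymph node comparisons all genes run from 1.02 and 0.59 in the shortest class to about 0 in the longest, and the members stay close to them in the shortest class, whereas tumour CLEC against tumour EC shows no such slope.

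Atp5k differed most. It was at 60 CPM in tumour EC and 4.3, 7.2 and 26.9 CPM in lymph node GFP- cells of pools A, B and C, a log2 ratio of 2.80, and at 58.6 and 72.6 CPM in tumour CLEC against 16.1, 8.3 and 10.7 CPM in GFP+ pools, a log2 ratio of 2.32. Its gene (chr5:108433244-108434448, minus strand) has a transcript under 1000 bases and a near-identical copy. Cox5a, which binds at the matrix side of complex IV, was at 213.3 CPM against 47.2, 65.5 and 34.7 CPM, a log2 ratio of 1.97, with no pool reaching the tumour plate. Uqcr10, a small subunit of complex III, was at 151.9 and 119.3 CPM in tumour CLEC against 27.2, 31.1 and 36.3 CPM in GFP+ pools, a log2 ratio of 2.09. Ndufa8 stood at 2.02 in the same comparison.

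Sdha and Ndufs7 did not share in this. Sdha, with a transcript of 2900 bases, was at 208.2 CPM in tumour EC and 188.5, 272.6 and 233.5 CPM in lymph node GFP- pools, a log2 ratio of -0.14 with overlapping values. In tumour CLEC it was at 137.9 and 121.5 CPM, below the 373.99, 168.5 and 274.1 CPM of the GFP+ pools, a log2 ratio of -1.15. Ndufs7, a core subunit of complex I that carries an iron-sulphur cluster, was at 92.1 CPM in tumour EC and 94, 162.9 and 130.1 CPM in the GFP- pools. Atp5b was at 1056 CPM in tumour EC and 997.8, 1071 and 965.5 CPM in the GFP- pools, so that for Atp5b the tumour value lay within the range of the pools.

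The ring subunit c of ATP synthase is encoded by 3 genes. Per kilobase of transcript, Atp5g3 was at 142.4, Atp5g2 at 64 and Atp5g1 at 35.6 CPM in tumour EC, and at 93.4, 33 and 15.9 in lymph node GFP- cells, and this order held in all 6 tumour and lymph node gates. Without the division by length another order held in all 6, with Atp5g1 at 167.9, Atp5g3 at 102.98 and Atp5g2 at 46.8 CPM in tumour EC, so that the order rests on the annotated transcript lengths. Cox7a2l, which helps join complexes III and IV into supercomplexes, was at 300.4 CPM in tumour EC, 277.2 and 262.5 in the tumour CLEC plates, 262.8, 293.8 and 250 in lymph node GFP- pools and 394.2, 403.8 and 366.4 in GFP+ pools. Per kilobase it stood above Cox7a2 in every tumour and lymph node gate, narrowly so in tumour CLEC (250.6 against 246.4 CPM per kilobase).

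The mitochondrial members were at 0.76 (tumour EC against lymph node GFP-) and 0.79 (tumour CLEC against GFP+) on the log2 scale in sum, but not evenly by gene. mt-Co1, the catalytic subunit of complex IV, was at 7475 CPM in tumour EC and 8167, 6116 and 6710 CPM in lymph node GFP- pools, a log2 ratio of 0.07 with overlapping values. mt-Co2, which takes electrons from cytochrome c, was at 2530 CPM against 684.3, 400.8 and 1837 CPM, a log2 ratio of 1.90. mt-Nd1 of complex I stood at 1.56, mt-Atp6 and mt-Atp8 of complex V at 1.05 and 1.61, mt-Cytb of complex III at 1.00, mt-Nd4 at 0.63 and mt-Nd5 at 0.55. In tumour CLEC against GFP+ cells mt-Co1 stood at -0.10, mt-Nd5 at 0.08, mt-Co2 at 2.16 and mt-Nd1 at 1.98.

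As a share of all mitochondrial member reads, mt-Co1 took 28.5% in macrophages, 30.4% in tumour EC and 24.4% and 25.1% in the tumour CLEC plates, against 36.4% to 54.6% over the 9 lymph node pools. The lymph node pools thus all lay above the tumour plates. mt-Co3, the third core subunit of complex IV, was listed at 31.6, 86.5 and 0 CPM in GFP- pools and at 409.6 CPM in tumour EC, far below mt-Co1 in both. mt-Nd6, which is encoded on the opposite strand, was at 324.3 CPM in macrophages and 124.7 CPM in tumour EC. The library kit does not mark strand, so reads of mt-Nd6 cannot be told from those of the opposite strand, and the overlapping pairs mt-Atp8 with mt-Atp6 and mt-Nd4l with mt-Nd4 cannot be fully told apart. In addition, 8 of the 13 genes, mt-Co1, mt-Co2, mt-Co3 and mt-Atp6 among them, have near-identical copies in annotated transcripts.

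**Figure D5:**
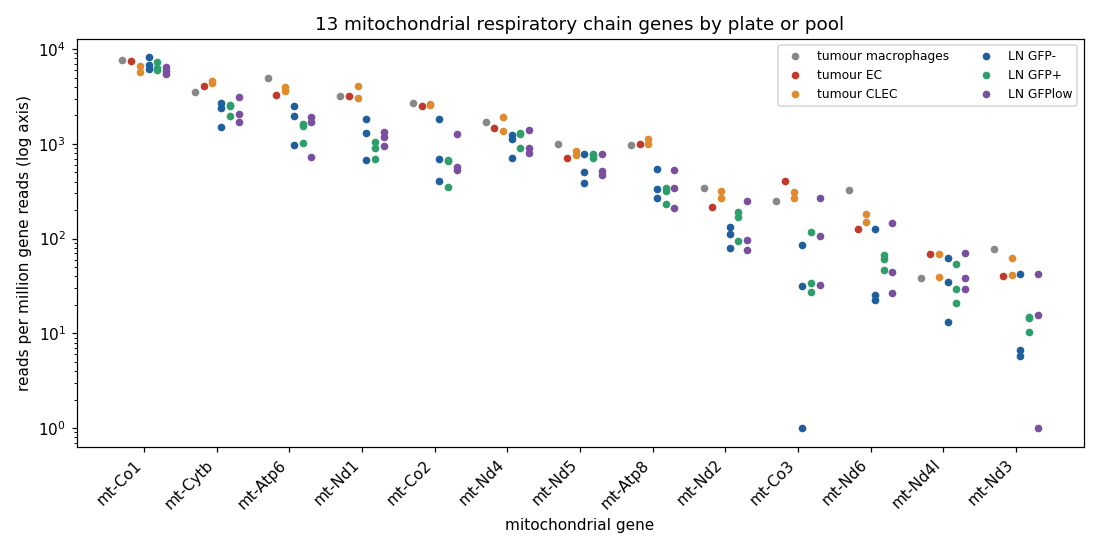
Level of the 13 mitochondrial members (reads per 1000000 of all gene reads, log axis, with 0 drawn at 1) in each plate or pool, coloured by gate. Tumour and lymph node points overlap for mt-Co1 and separate for mt-Co2, with 2530 in tumour EC and at most 1837 in lymph node GFP- pools.

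Other genes of mitochondrial metabolism were read from lists beside the members. In tumour CLEC against tumour EC, of 40 measured assembly factors 2 were at least 2-fold lower and none higher (9.94% and 8.95% of all genes), and the median was -0.19. Of 18 measured genes for mitochondrial biogenesis and mitochondrial DNA expression 3 were lower, among them Tfam, which packages mitochondrial DNA, with 15.8 against 36.5 CPM. Medians were -0.34 for the tricarboxylic acid cycle (1 of 13 lower, Suclg2 with 38.8 against 102.8 CPM), -0.34 for glycolysis (none of 13) and -0.23 for the mitochondrial ribosome (1 of 78 in each direction). All of these stood on the same side of 0 as the members and as all genes (-0.11).

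In tumour EC against lymph node GFP- cells, glycolysis stood at a median of 1.54 with 9 of 13 measured genes at least 2-fold higher, where 27.7% of all genes were higher and 21.9% lower, Tpi1 with 438.1 against 79.3 CPM and Pkm with 1973 against 495.3 CPM among them. The mitochondrial ribosome stood at 0.87 (35 of 78 higher, 1 lower), the assembly factors at 0.34 (15 of 40 higher, 4 lower) and the tricarboxylic acid cycle at 0.44 with none of 13 past 2-fold in either direction. These lists were not split by transcript length. In tumour CLEC against lymph node GFP+ cells the medians were 1.37 for glycolysis (10 of 13 higher, against 26% of all genes), 0.42 for the mitochondrial ribosome, -0.25 for the assembly factors and -0.06 for the tricarboxylic acid cycle, beside 0.60 for the nuclear members.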

How the data were processed

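Whole-number read counts per gene were deposited by the authors in 2 tables, one for tumour cells and one for lymph node and blood cells. The submitters' processing notes name build mm10, Subread at version 1.4.6-p2, STAR at version 2.4.1b and FastQC at version 0.11.4, and give no roles. The gene annotation is not given in the sources used here. Per the labels' protocols, SMART-seq2 was run with 20 amplification cycles, and libraries were made with the Nextera XT kit, which does not mark strand. Rows sharing a symbol (92 of 51826) were summed. Well filters were 50000 reads and 1000 genes, with no limit on mitochondrial reads because these are an outcome here (a limit of 25% keeps 592 cells in place of 597). Reads were summed over the kept cells of a gate and scaled to CPM, with a pseudocount of 1 CPM. Doublets were not called, since wells were sorted singly. Values are summed reads, so deeper cells weigh more. Transcript lengths and positions are from GENCODE vM21 and promoters from RefSeq. Near-identical copies were transcripts of other genes with at least 95% identity over 50% of the length (BLAST 2.17.0). Python 3.11.15, numpy 2.4.6, pandas 2.3.3 and scipy 1.17.1 were used, and the ratios were tested on simulated data.

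Members and lists were chosen with earlier results of these data known. Named genes are, per comparison, the 3 highest and 3 lowest members with 20 CPM and reads in 25% of cells of the higher group, the leading member of each complex per length, the mitochondrial members, isoform sets and core subunits, with up to 4 genes of each other list. Alternatives covered the cell filter, scaling, summary over cells, depth, pseudocount, filters, members with pseudogenes, and single plates or pools. The tumour against lymph node comparisons and the alternative without members that have near-identical copies were added after seeing the data.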

Additional observations from a re-analysis of the deposited data

Results flagged for a closer look

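The GFP+ over GFP- ratio was set side by side in tumour (CLEC against EC) and lymph node for 24 named nuclear members and the 13 mitochondrial ones. In 5 of the nuclear (20.8%) and 1 of the mitochondrial, every plate of one tissue and every pool of the other went opposite ways. The same held for 12% of the 9750 nuclear genes measured in both comparisons and for 9 of all 76 nuclear members so measured (11.8%), and Ndufb6 and Ndufb9 were named for their high ratio in the lymph node. The difference itself was not tested, and the tumour values all share the one EC plate. As log2 ratios in the tumour minus the lymph node, these were -1.52 for Ndufb6 (-0.24 in the tumour and 1.28 in the lymph node), -1.37 for Ndufb9, -0.96 for Cox6a1, -0.65 for Cox7a2l, -0.58 for Uqcrc1 and 0.26 for mt-Co2. For mt-Co2 the tumour plates gave only 0.02 and 0.06, and the lymph node pools ran from -1.44 to -0.04, so its signs changed close to 0. Cox6a1 was at 290.6 and 295.2 CPM in tumour CLEC plates against 327.4 in EC, and at 222.5, 224.98 and 262.9 CPM in lymph node GFP+ pools against 106.8, 163.6 and 142.2 in GFP- pools. For Uqcrc1, the GFP+ pools at 345.7, 303.4 and 179.03 CPM overlap the GFP- pools at 323.4, 245.7 and 122.1 CPM, although each pool's own ratio is above 0.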

How the results depend on the processing

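No paired test was run, because no result comes from a test, and the ratios within shared pools are given as values. Of all values under other settings, 40 lay outside the limits set for the reported value (1.5 times for counts), given here singly or as ranges. The median of the nuclear members took the other sign in 1 and the mitochondrial sum in 11. Of these 11, 9 had a reported value within 0.1 of 0. In the others, GFPlow against GFP- (0.31) and against GFP+ (0.21), pools B and C had opposite signs. For GFPlow against GFP- the reported value lies above that of either pool (0.24 and -0.069), and these gates mix the pools unequally. With median-of-ratios scaling, tumour CLEC against tumour EC gave a median of -0.040 and a mitochondrial sum of 0.15, tumour EC against lymph node GFP- a median of 0.91 with 31 members higher, and tumour CLEC against lymph node GFP+ 15 members higher. The mean over cells gave mitochondrial sums of 0.31 (tumour CLEC against EC), 0.25 (against macrophages), 0.068 (GFPlow against GFP-) and 0.97 (tumour CLEC against lymph node GFP+), with 1 member lower in the first and last and 7 higher in lymph node GFP+ against GFP-. Thinning to 100000 reads gave mitochondrial sums of 0.30, 0.22 and 0.036 in the first 3 of these, 1 member lower in tumour CLEC against EC and against lymph node GFP+, and 6 higher in lymph node GFP+ against GFP-. At 20 CPM or more, 0 members were lower in tumour CLEC against macrophages, where the 3 called at 1 CPM are all below that level. With no filter on low values, 3 members were lower in GFP+ against GFP- and 3 in tumour EC against lymph node GFP-. Cells with 200000 reads and 2000 genes gave 1.22 for the median of tumour EC against lymph node GFP-. Other causes were not tested.

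Leaving out single plates or pools moved lymph node GFP+ against GFP- most: the median ran from -0.13 (without pool A) to 0.39, members higher from 2 to 9 and lower from 0 to 9. GFPlow against GFP- had mitochondrial sums of -0.069 to 0.24, and GFPlow against GFP+ had 5 to 6 members lower. Tumour CLEC against EC had 0 to 1 member lower, and against macrophages 6 with either plate. Tumour EC against lymph node GFP- ran from 0.79 (without pool A) to 1.25 in the median, from 30 to 47 members higher and from 0 to 2 lower. Tumour CLEC against GFP+ ran from 0.54 to 0.77, with 1 to 3 lower. The number of kept cells, as low as 9 in one pool, limits what can be read from single pools.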
